A study of Mus musculus with 5 samples.

Results

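The CD45lo microglia of remyelinating lesions were represented by 3 of the 5 libraries in the series. They were chosen by their labels, as the microglia of wild-type (WT) C57BL/6J male mice aged 10 weeks that had received a stereotaxic injection of lysolecithin (LPC), a myelin toxin, into the corpus callosum. Lesions were taken at 10 days post lesion (dpl), when remyelination begins, and CD11b+ Ly6G- CD3- CD45lo live cells were sorted by flow cytometry. The libraries are named LPC_127, LPC_128 and LPC_129 after the ends of their titles. The labels give n = 3 for this group but do not say which animals entered each library, so the spread below is the spread between libraries and may be partly technical. All values come from bulk RNA of the gate, in which fewer cells of a type and less RNA per cell cannot be told apart. The group holds no unlesioned sample and no other time point, and the libraries were made from amplified cDNA of very small RNA inputs.

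Microglia are the resident macrophages of brain tissue and are maintained by signalling through the receptor CSF1R and by TGF-beta. In the resting state they express a set of homeostatic genes for sensing and surveillance, including the purine receptor gene P2ry12 and the transcription factor gene Sall1. In damaged white matter they engulf myelin debris, degrade it in lysosomes and handle the cholesterol it releases, and a programme that depends on the lipid receptor TREM2, with Apoe, Lpl, Spp1 and Itgax among its genes, is known from demyelinated and degenerating tissue.

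The libraries held 6633766, 9021700 and 5890081 counted read pairs in the order LPC_127, LPC_128 and LPC_129, and 5900214, 5506276 and 4854627 of these fell on nuclear genes. Library LPC_129 stood apart. It had at least 10 reads for 5994 genes, against 11653 in library LPC_127 and 11493 in library LPC_128, and after all libraries were thinned to 4854627 nuclear reads the numbers were 5984, 11331 and 11290, so the gap remained at equal depth. Of 13449 nuclear genes with at least 10 reads in any library, 64.6% had their lowest nuclear CPM (reads scaled to the same total of nuclear reads) in library LPC_129. Among the 5392 nuclear genes with a mean of at least 20 CPM the share was lower, 51.2%. Values are therefore given for each library, and lists of genes are set beside the share of all genes.

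The agreement between libraries was moderate. Across 13460 genes with at least 10 reads in any library, Spearman's rho was 0.73 for libraries LPC_127 and LPC_128, 0.63 for LPC_127 and LPC_129 and 0.67 for LPC_128 and LPC_129. Genes are not independent replicates, and these values describe the libraries only. The median gene differed 2.30-fold between LPC_127 and LPC_128, 4.69-fold between LPC_127 and LPC_129 and 4.45-fold between LPC_128 and LPC_129. Of the 500 nuclear genes with the highest FPKM (a level per length of gene and per depth of library) in each library, 281, 183 and 206 were shared by these pairs, and 146 by all 3 libraries. The common dispersion, the squared coefficient of variation beyond counting error, was 0.75 over 5497 genes. That value required reads in every library and left out the genes that one library lacked, and the same estimate on simulated counts came out too low. Over 11895 genes kept by their mean count it was 1.70, a coefficient of variation of 130% between libraries.

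**Figure D1:**
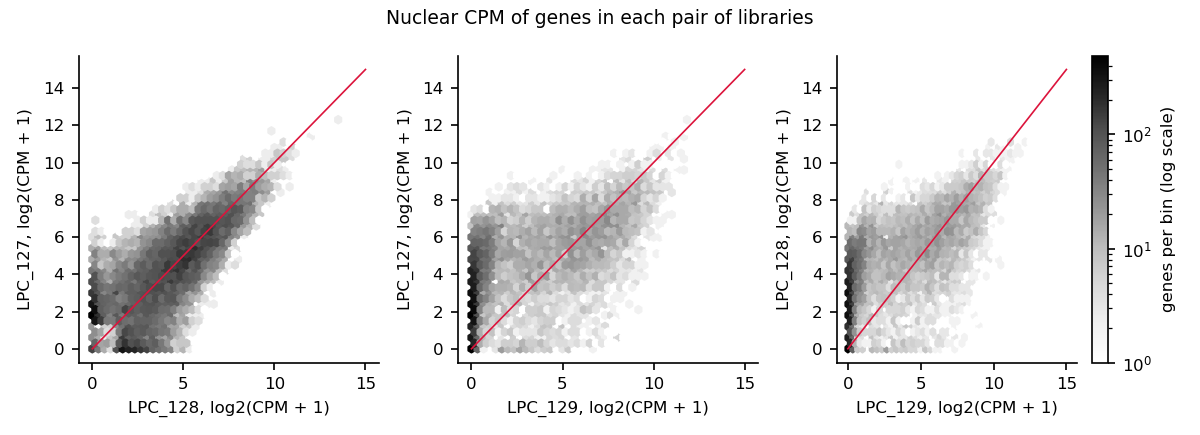
Nuclear CPM of each gene, as log2(CPM + 1), in each pair of microglia libraries, for genes with at least 10 reads in any library; shading counts genes per bin and the red line marks equal values. The cloud follows the line for libraries LPC_127 and LPC_128, where rho was 0.73, and many genes sit near 0 on the axis of library LPC_129.

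All 5 genes taken as markers of microglia were read in every library. Of these, Csf1r and Cx3cr1 are shared with monocytes and Sall1 is the most restricted to microglia. Csf1r, the receptor for the survival factors CSF1 and IL-34, had 1826, 501 and 1917 FPKM in libraries LPC_127, LPC_128 and LPC_129, and ranked 8 by mean FPKM among nuclear genes. Cx3cr1, the receptor for neuronal fractalkine, had 499, 592 and 643 FPKM, a mean of 578 ± 73 FPKM (SD, n = 3), and ranked 33. It was the most even of the 5 markers, and its libraries differed little beside those of the others. In nuclear CPM, Cx3cr1 had 2527, 4367 and 3514, was highest in library LPC_128 and was again the most even marker.

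P2ry12, a receptor for ADP that guides microglial processes, had 193, 442 and 1679.8 FPKM and ranked 20. It ranked 5 in library LPC_129 and 31 in library LPC_128, so it was among the leading genes there, and it had its lowest FPKM in library LPC_127. Tmem119, a microglial membrane protein, had 336, 70 and 185 FPKM and ranked 104. Sall1, which maintains microglial identity, had 217, 46.5 and 53.7 FPKM and ranked 239. These last genes were highest in library LPC_127, whereas P2ry12 was highest in library LPC_129, so the markers did not share one order of libraries. The median rank of the 5 markers was 33, and 54 without library LPC_129. Itgam and Ptprc, which encode the CD11b and CD45 used for the gate, had 979.7, 1391 and 877 and 40.2, 50.9 and 130.4 FPKM, and these are not independent of the sort.

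P2ry12 lay on chromosome 3 from 59216272 to 59262871 (GRCm38, GENCODE vM21, minus strand), beside P2ry13 at 59207892 to 59210882, a related ADP receptor gene. P2ry13 had 184, 306 and 1179 FPKM, the same order of libraries as P2ry12, and ranked 34. Both genes lie within Med12l on the opposite strand. Med12l had 1377, 2422 and 2542 reads, against 3260, 10146 and 25191 reads for P2ry12, and reads of overlapping genes cannot be told apart without strand. Tmem119 lay on chromosome 5 from 113793729 to 113800516, Sall1 on chromosome 8 from 89027235 to 89044162 and Cx3cr1 on chromosome 9 from 119901616 to 120069879, all on the minus strand.

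The promoter windows of the P2ry12 and P2ry13 pair are printed because these neighbours were low and high in the same libraries. Each runs from 250 bases before to 50 after the start site on the minus strand (RefSeq, GRCm38.p6), at chr3:59262936-59263235 and chr3:59210833-59211132. RefSeq and GENCODE place the P2ry12 start differently, and its window lies wholly upstream of the GENCODE gene, which ends at 59262871. Capitals mark the letters GAGGAA on either strand, the box bound by PU.1, a transcription factor of the myeloid lineage.
P2ry12: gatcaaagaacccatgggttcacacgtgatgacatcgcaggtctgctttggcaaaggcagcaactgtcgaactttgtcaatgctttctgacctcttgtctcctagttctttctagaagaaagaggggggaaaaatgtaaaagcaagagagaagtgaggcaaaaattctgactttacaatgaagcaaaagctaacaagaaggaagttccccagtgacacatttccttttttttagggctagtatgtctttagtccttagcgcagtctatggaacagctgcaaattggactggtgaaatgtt
P2ry13: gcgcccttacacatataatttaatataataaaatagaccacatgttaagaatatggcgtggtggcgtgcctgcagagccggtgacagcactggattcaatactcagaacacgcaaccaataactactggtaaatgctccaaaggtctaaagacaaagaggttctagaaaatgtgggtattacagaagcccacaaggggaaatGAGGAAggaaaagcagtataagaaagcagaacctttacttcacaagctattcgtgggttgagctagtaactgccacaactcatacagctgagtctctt
The P2ry13 window held the letters once and the P2ry12 window did not. Of 32851 windows of all RefSeq genes 28.3% held them, and of 23 windows that matched 19 of the homeostatic genes 11, or 47.8%, did. The share was not particular to these genes. It was 47.6% of 21 windows for the TREM2 axis and disease-associated genes. For the lineage transcription factors it was 37.0% of 27 windows and for ribosomal proteins 31.6% of 76. A match describes these letters and says nothing of binding.

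Homeostatic genes had the highest mean share of nuclear reads among the 33 function lists, 3.12% ± 0.266 (SD, n = 3), with 2.89%, 3.07% and 3.41% in libraries LPC_127, LPC_128 and LPC_129. In library LPC_127 the lysosomal enzymes held more, and without library LPC_129 their mean of 3.14% lay above the 2.98% of the homeostatic genes. All 32 members were read, and 31 had at least 10 reads in every library. Their lowest value fell in library LPC_129 for 11 of 32, or 34.4%, against 64.6% of all genes. Among genes with a mean of at least 20 CPM the share was 51.2%. Of the function lists, complement, immediate early genes and Fc receptors came next, at 38.5%, 40.7% and 44.1%. Cst3, the secreted protease inhibitor cystatin C, had 4173, 1557 and 1822 FPKM and ranked 4. Sparc, a secreted matrix protein, had 1204, 1191 and 832 FPKM. FPKM are scaled to all reads, mitochondrial ones included, and in nuclear CPM Sparc had 5127, 7394 and 3826 and was highest in library LPC_128. Cst3 was highest in library LPC_127 on both scales.

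The transcription factors of the lineage held 1.23%, 1.23% and 1.09% of nuclear reads, and 17 of 22 had at least 10 reads in every library. Ikzf1 had 116, 103 and 97.7 FPKM and Mef2a, a partner in the homeostatic programme, 56.5, 68.7 and 144 FPKM. Ikzf1 varied less than Mef2a, which was highest in library LPC_129. Spi1, which encodes PU.1, had 53.5, 19.3 and 135 FPKM, and Irf8, its partner in myeloid cells, had 4235, 2486 and 122 reads, few of them in library LPC_129.

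Markers of other cell types took few reads. All 12 of their lists together held 0.490%, 0.401% and 0.199% of nuclear reads in libraries LPC_127, LPC_128 and LPC_129. The largest was the list for macrophages of the brain borders, at 0.189%, 0.15% and 0.0996%. Lyz2, lysozyme, supplied 68.4% of its reads over the libraries. It had 8145, 7396 and 1056 reads of the 11155, 8286 and 4833 on the list, so in library LPC_129 other members supplied most. Of its 14 members, 10 were read, 6 had at least 10 reads in any library and 4 had them in every library. After Lyz2 the leading members by mean FPKM were Stab1, Siglec1 and Pf4, while Lyve1, Cbr2, Cd209f and Clec12a had no read. The classical monocyte list held 0.0755%, 0.0485% and 0.002%, and Ccr2, the chemokine receptor of these cells, had 12, 52 and 0 reads, so in library LPC_129 it was below the limit of 3 reads that a count of 0 allows.

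Ly6g, the neutrophil surface marker used for exclusion, had no read in any library, nor did Cd3d, Cd3e and Cd3g of T cells. The B cell list held 0.0684%, 0.0884% and 0.0552%, and Ighm, the immunoglobulin heavy chain gene, supplied 86.0% of its reads over the libraries with 3098, 4322 and 2536 reads. Cd22, an inhibitory receptor gene, had 557, 208 and 8 reads, while Cd79a and Pax5 had none. The myelin list held 0.0228%, 0.0154% and 0.00161%. Mbp, a major myelin protein gene, had 595, 385 and 49 reads and Cnp, a myelin enzyme gene, 396, 285 and 6 reads, and both were lowest in library LPC_129. Mog and Sox10 had no read. Whether the markers of other cells contribute to any difference between the libraries was not tested.

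The 10 nuclear genes with the most reads in each library held 6.36%, 7.50% and 5.74% of nuclear reads in libraries LPC_127, LPC_128 and LPC_129, and the leading 100 held 23.2%, 23.7% and 23.9%. By mean CPM over all reads Csf1r ranked 1 among nuclear genes and Itgam 2, and by mean FPKM, which corrects for length, the order was different. B2m, the light chain of MHC class I, had 5597, 9135 and 3339 FPKM and ranked 2. Ctss, a lysosomal protease of antigen processing, had 1792, 2753 and 1037 FPKM. B2m and Ctss were both highest in library LPC_128.

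C1qb and C1qc, chains of the complement initiator C1q, had 2288, 1331 and 714 and 2029, 459 and 1063 FPKM. Fcer1g, the signalling chain of Fc receptors, had 1669, 1337 and 1282 FPKM. Serinc3, a membrane protein, had 704, 779 and 1326 FPKM. Fcer1g ranked 14, 7 and 9 in the 3 libraries, so it was a leading gene in each, whereas C1qb was lowest in library LPC_129 and Serinc3 highest there. Gm23935, a feature of 57 bases annotated as a miRNA, ranked 1 with 78244, 4548 and 7184 FPKM. Gm24187 and Gm24270, also of 57 bases, and Mir6236, of 123 bases, were likewise annotated as miRNAs and stood among the leading 30. Their FPKM rest on few bases, and reads of near-identical copies cannot be assigned with confidence.

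**Figure D2:**
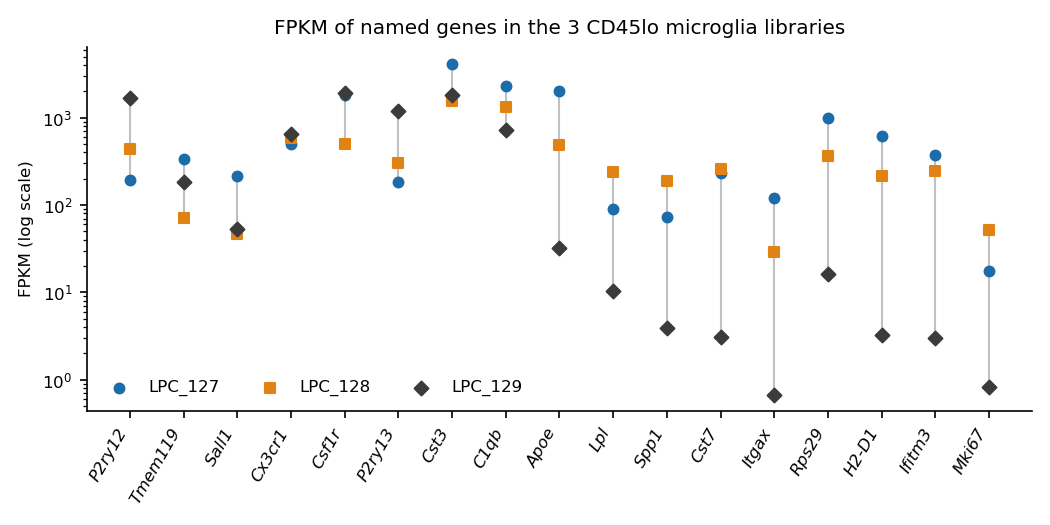
FPKM of named genes on a log scale, with 1 point for each of libraries LPC_127, LPC_128 and LPC_129 and a grey line over their range. Cx3cr1 varies least of the 5 markers, P2ry12 and P2ry13 are highest in library LPC_129, and the genes from Apoe to Mki67 are lowest there.

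By function, the 33 lists together held 29.6%, 30.2% and 24.4% of nuclear reads in libraries LPC_127, LPC_128 and LPC_129, over 1103 genes, and some genes stand on more than 1 list. After the homeostatic genes came the lysosomal enzymes, membrane proteins and proton pump with 2.73% ± 1.08 (SD, n = 3), Fc receptors and immunoreceptor signalling with 1.9% ± 0.335, and the actin cytoskeleton and engulfment genes with 1.69% ± 0.118. The cathepsins and cystatins held 1.67% ± 0.809 and complement 1.58% ± 0.315. The ranges of these lists overlapped in part, and that of the lysosomal list spanned that of the homeostatic list, so their order is not firm from the first place on. The order by reads favours long genes. Of summed FPKM the homeostatic list held 3.31%, 4.15% and 5.09%, a mean of 4.18%, and MHC class I held 2.20%, 6.13% and 2.45%, a mean of 3.6%, so MHC class I held more in library LPC_128.

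**Figure D3:**
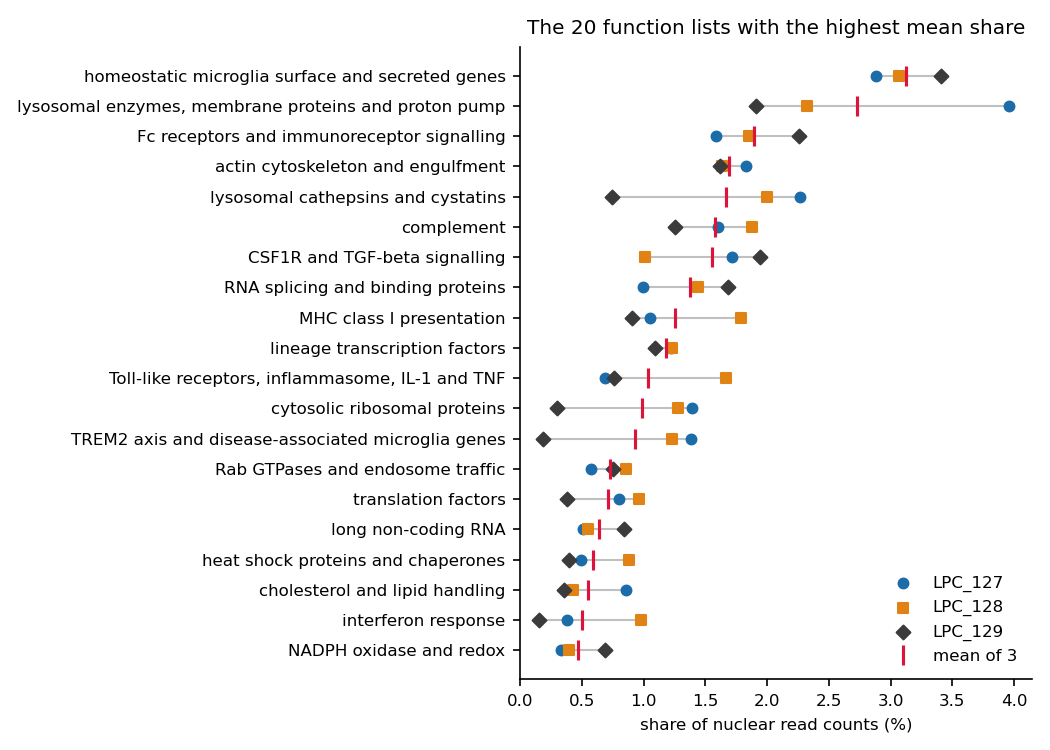
Share of nuclear reads, in percent, held by the 20 function lists with the highest mean share, with 1 point for each library and a red bar at the mean. The homeostatic list has the highest mean, 3.12% ± 0.266. The points of the cathepsin and cystatin list, the ribosomal protein list and the TREM2 list lie far left in library LPC_129.

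Lysosomal genes were abundant but uneven. The list of enzymes, membrane proteins and pump subunits held 3.96%, 2.32% and 1.91%. Grn, the lysosomal protein progranulin, had 1965, 399 and 226 FPKM, and Cd68, a membrane protein of macrophage lysosomes, had 1258, 645 and 202 FPKM. Lgals3bp had 1639, 543 and 38.3 FPKM and Laptm5 884, 224 and 781 FPKM. Grn, Cd68 and Lgals3bp were highest in library LPC_127 and lowest in library LPC_129, whereas Laptm5 was lowest in library LPC_128.

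The list of cathepsins and cystatins, which are cathepsin inhibitors, held 2.26%, 2% and 0.748%. Ctsd, an aspartic protease, had 3322, 717 and 115 FPKM and Ctsb, a cysteine protease, 895, 724 and 217 FPKM. Cstb, an inhibitor of cathepsins that counts on the same list, ran the other way from these proteases with 124, 47.9 and 1378 FPKM. Cstb was thus highest in the library in which both proteases were lowest.

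The TREM2 axis and disease-associated genes were low in library LPC_129. The list held 1.39%, 1.23% and 0.182% of nuclear reads in libraries LPC_127, LPC_128 and LPC_129. Its 21 members were lowest in library LPC_129 in 20 cases, or 95.2%, against 64.6% of all genes, and in none was library LPC_129 the highest. The exception was Lilrb4a, an inhibitory receptor gene, with 261, 1296 and 322 reads. The median log2 ratio of nuclear CPM, with 1 CPM added, was -4.36 for library LPC_129 over LPC_127 and -4.39 for LPC_129 over LPC_128, against -1.75 and -1.70 over all 13449 genes and -0.66 and -0.64 over the 5392 with a mean of at least 20 CPM. For LPC_128 over LPC_127 it was -0.10, against 0.02 over all genes. No test was made, since 1 library cannot be set against others as a group.

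Among its members, Apoe, the lipid carrier, had 28560, 9376 and 409 reads and 2014, 486 and 32.5 FPKM, and Tyrobp, the signalling partner of TREM2, had 1491, 531 and 181 FPKM. Cst7, cystatin F, had 1516, 2282 and 18 reads and Timp2, a metalloprotease inhibitor, 6559, 5650 and 3827 reads. Apoe and Cst7 were far lower in library LPC_129 and Timp2 less so. Lpl, lipoprotein lipase, had 6314, 22359 and 634 reads, Spp1, osteopontin, 805, 2780 and 38 reads, Itgax, the integrin CD11c, 3816, 1264 and 19 reads, and Igf1, a growth factor, 1009, 1786 and 21 reads. Trem2 itself had 5312, 1645 and 643 reads. Lpl, Spp1 and Igf1 were highest in library LPC_128 and Itgax and Trem2 in library LPC_127, and all of them were lowest in library LPC_129. These 5 genes, with Lilrb4a, P2ry13, Med12l, Spi1, Irf8, Ccr2, Fzd7, Mki67, Top2a and the mitochondrially encoded genes, were named after their values had been seen.

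Lists of lipid and sugar metabolism lay in the same direction. Cholesterol and lipid handling held 0.861%, 0.429% and 0.355%, with 24 of 31 members, or 77.4%, lowest in library LPC_129, against 64.6% of all genes. Abca1, which exports cholesterol, had 144, 93.5 and 111 FPKM and was close to even, while Abcg1, a second exporter, had 103, 22.4 and 2.13 FPKM. Glycolysis and glucose transport held 0.484%, 0.247% and 0.142%. Gapdh, a glycolytic enzyme gene, had 8347, 4757 and 3091 reads and Slc2a1, a glucose transporter gene, 2185, 888 and 45 reads. Abcg1 and Slc2a1 were lowest in library LPC_129, and 17 of 23 glycolysis members, or 73.9%, were highest in library LPC_127, against 41.6% of all genes.

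Interferon response genes were mostly highest in library LPC_128. They held 0.383%, 0.975% and 0.156%, a mean of 0.505% that was 0.269% without library LPC_128, and 28 of 36 members, or 77.8%, were highest there, against 40.2% of all genes. In library LPC_129 32 of 36, or 88.9%, were lowest, against 64.6% of all genes. The median log2 ratio was -4.20 for LPC_129 over LPC_127 and -5.01 for LPC_129 over LPC_128, against -1.75 and -1.70 over all genes. Ifitm3, an antiviral membrane protein, had 1694, 1512 and 12 reads. Oasl2 had 2796, 9971 and 40 reads and Ifi207 1005, 6753 and 262 reads. Oasl2 and Ifi207 were highest in library LPC_128, and Ifitm3 had similar levels in libraries LPC_127 and LPC_128 and very few reads in library LPC_129. For MHC class I, H2-D1 and H2-K1, heavy chains, had 10546, 5022 and 49 and 6012, 5008 and 1270 reads, although their light chain B2m stayed abundant in library LPC_129. Reads of H2 genes may be split among close copies.

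Of 42 cell cycle genes 29, or 69.0%, were highest in library LPC_128, against 40.2% of all genes. The list held 0.196%, 0.327% and 0.099%. Mki67, a marker of dividing cells, had 1174, 4694 and 49 reads and Top2a, which untangles DNA at division, 149, 1323 and 12 reads. Ccnd1, cyclin D1, went the other way with 305, 88 and 1792 reads. H2afz, a histone variant gene, had 878, 887 and 363 reads, and Tubb5, a tubulin gene, 1661, 565 and 526 reads. In 33 of 42 cases, or 78.6%, against 64.6% of all genes, the lowest value was in library LPC_129, with Ccnd1 among the exceptions. The median log2 ratio was -1.83 for LPC_129 over LPC_127, close to the -1.75 of all genes. For LPC_129 over LPC_128 it was -3.26, against -1.70 over all genes.

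Genes of protein synthesis were low in library LPC_129. Cytosolic ribosomal proteins held 1.39%, 1.28% and 0.297% of nuclear reads. In library LPC_129 73 of 81 members, or 90.1%, were lowest, against 64.6% of all genes. The median log2 ratio was -3.32 for LPC_129 over LPC_127 and -3.42 for LPC_129 over LPC_128, against -1.75 and -1.70 over all genes. Rps29 had 4564, 2274 and 66 reads, Rps23 1121, 1978 and 703 reads and Rpl4 3495, 4091 and 1687 reads. Rps29 was far lower in library LPC_129, while Rps23 and Rpl4 kept a larger part of theirs. Many ribosomal protein genes have near-identical pseudogenes, and their counts are uncertain. Among translation factors, Eef1a1 had 419, 325 and 153 FPKM and Eef2 433, 80.8 and 85.4 FPKM.

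**Figure D4:**
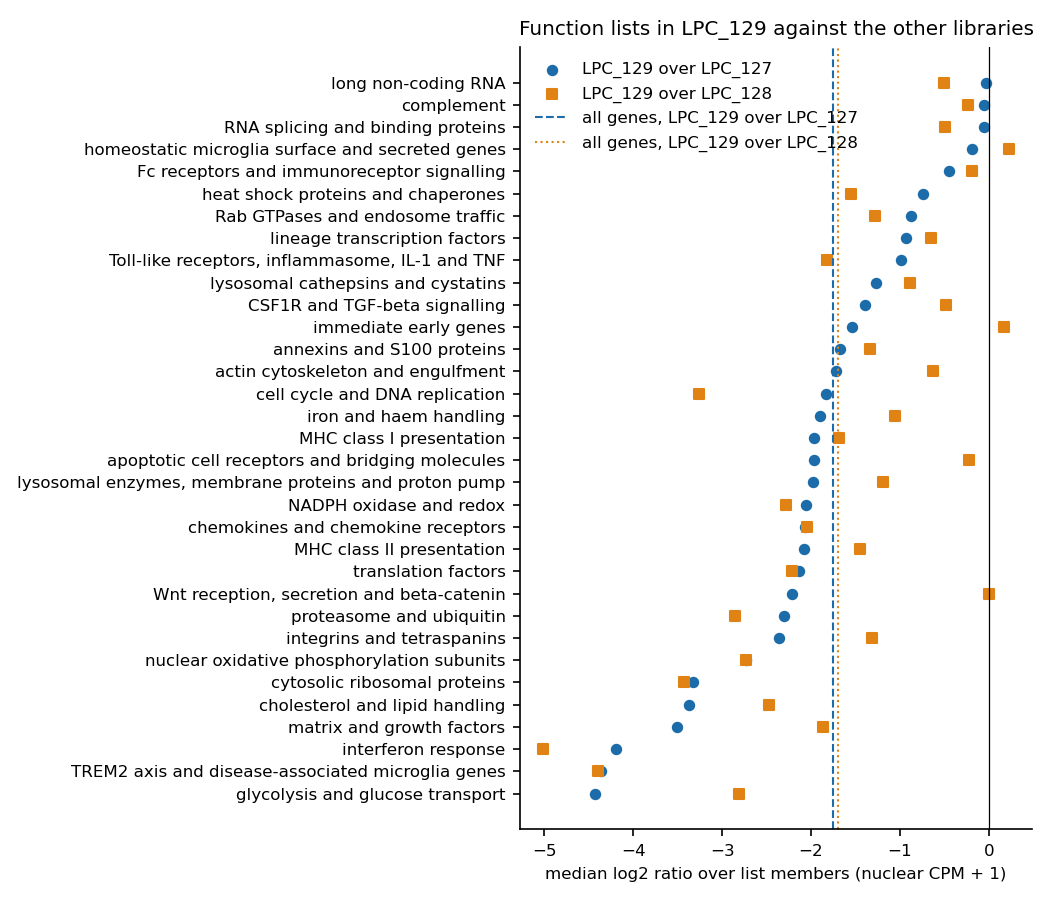
Median log2 ratio of nuclear CPM (1 CPM added) over the members of each of 33 function lists, for library LPC_129 over library LPC_127 (circles) and over library LPC_128 (squares); dashed and dotted lines mark the medians of all genes, -1.75 and -1.70. The homeostatic list lies near 0, and the TREM2 list lies at -4.36 and -4.39. Other lists lie as low, with the interferon response at -4.20 and -5.01 and glycolysis at -4.43 and -2.81.

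Of 17 genes of CSF1R and TGF-beta signalling 15 were read, while Il34 and Lrrc32 had no read in any library. The list held 1.71%, 1.01% and 1.94%, and Csf1r supplied 54.4% of its reads over the libraries. At least 10 reads in every library were found for 14 of the 17. The lowest value fell in library LPC_129 for 9 of 15, or 60%. That lies between the 64.6% of all genes and the 51.2% of genes with a mean of at least 20 CPM. Tgfbr1, a TGF-beta receptor, had 180.5, 194 and 666 FPKM and was highest in library LPC_129. Toll-like receptor and inflammasome genes held 0.686%, 1.67% and 0.763%, most in library LPC_128, where Cd180, a Toll-like receptor relative, and its partner Ly86 had their highest FPKM. Cd180 had 367, 1056 and 171 FPKM and Ly86 670.0, 1389 and 529 FPKM. Tlr7, a sensor of single-stranded RNA, had 68.9, 342 and 464 FPKM and was lowest in library LPC_127. Il10, Il12b and Il1r2 had no read.

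Among chemokines, Ccl3 had 2458, 3040 and 17 reads and Ccl12 413, 1929 and 8 reads. Both attract myeloid cells, and both were nearly unread in library LPC_129. Over all features, 18109 genes had a read, of 24984 with listed counts and 49671 with listed FPKM. Of 48 Wnt pathway genes, 26 had no read in any library. Among them were Axin2, a common target of the pathway, and Lef1, one of its transcription factors. The list held 0.224%, 0.215% and 0.441%, from kinases and scaffold genes such as Gsk3a, with 271, 255 and 6139 reads, Apc, with 1206, 3605 and 6514 reads, and Gsk3b, with 2657, 2261 and 1990 reads. Fzd7, a Wnt receptor, had 1954, 438 and 6 reads. Fzd7 was highest in library LPC_127, while Gsk3a and Apc were highest in library LPC_129.

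Mitochondrially encoded genes took 11.1%, 39.0% and 17.6% of all reads in libraries LPC_127, LPC_128 and LPC_129. The ribosomal RNAs mt-Rnr1 and mt-Rnr2 made up 9.32%, 32.9% and 14.5%, and for this reason shares are given over nuclear reads. Of the 13 protein-coding genes, 7 had at least 100 reads in every library. The other 6 had 10 or fewer in every library. mt-Co1, a subunit of cytochrome oxidase, had 20385, 208249 and 63780 reads, whereas mt-Co2, another subunit of the same complex, had 4, 4 and 2. Whether the low counts of these 6 genes reflect RNA levels or the assignment of reads was not tested.

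Several genes were nearly the same in all libraries. Of 1045 nuclear genes with at least 500 reads in each, the median coefficient of variation of nuclear CPM was 0.450, and 32 genes lay at or below 0.1. The 10 lowest were Golm1, Top1, Ssh2, Dtx4, Sgpl1, Cux1, Ubp1, Klf6, Helz and Gsk3b. Golm1, a Golgi membrane protein gene on the homeostatic list, had 3534, 3218 and 2973 reads, and Ssh2, a phosphatase of the actin regulator cofilin, had 11559, 11366 and 10015 reads.

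Other genes came almost wholly from 1 library. Among 5392 nuclear genes with a mean of at least 20 CPM, 339 had at least 90% of their summed CPM in a single library, of which 187 were in library LPC_129, 147 in library LPC_127 and 5 in library LPC_128. Nbea, a scaffold protein gene, had 620, 1037 and 13009 reads, Ibtk 290, 598 and 10166 reads and Rhog, a small GTPase gene, 787, 236 and 7784 reads. Gstz1 had 151, 64 and 7274 reads and Zfp467 808, 291 and 9515 reads. All 5 were concentrated in library LPC_129. No gene with at least 500 reads in both other libraries was at 0 in the remaining one.

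The libraries also differed in base composition. Weighted by reads, the GC content of the transcripts was 49.99%, 46.8% and 47.2% in libraries LPC_127, LPC_128 and LPC_129. When abundant genes were cut into 5 bins of equal size by GC content, the highest bin held 27.1% of nuclear reads in library LPC_127, against 10.7% in library LPC_128 and 15.4% in library LPC_129, and the lowest bin held 11.9%, 23.6% and 23.9%. When ratios were centred within the 5 bins of GC content, an alternative added after the data were seen, the TREM2 list had a median log2 ratio of -2.61 for LPC_129 over LPC_127 and -2.85 for LPC_129 over LPC_128, the ribosomal proteins -1.46 and -1.75, and the homeostatic list 1.71 and 1.97. Each bin was centred on the median of its genes with at least 10 reads in any library. Centring thus also takes off the shift of all 13449 genes, -1.75 and -1.70. With that shift alone taken off, the values were -2.60 and -2.70 for the TREM2 list and -1.57 and -1.73 for the ribosomal proteins. For the homeostatic list they were 1.57 and 1.92, beside -0.19 and 0.22 with no shift taken off. Over the 5392 genes with a mean of at least 20 CPM the shift was smaller, -0.66 and -0.64. The part of base composition in single genes was not tested.

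**Figure D5:**
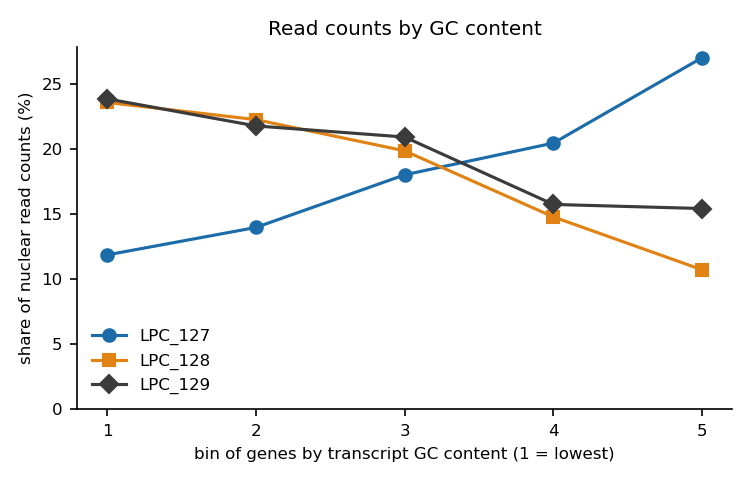
Share of nuclear reads, in percent, held by each of 5 bins of genes with a mean of at least 20 CPM, cut by the GC content of the longest transcript, for libraries LPC_127, LPC_128 and LPC_129. The share climbs to 27.1% in library LPC_127 and drops to 10.7% in library LPC_128 and 15.4% in library LPC_129 at the GC-rich end.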

How the data were processed

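The authors trimmed adaptors, dropped poor reads, aligned the rest to GRCm38 by STAR and deposited counts of read pairs per GENCODE vM12 gene. They also deposited FPKM, which equal the counts over gene length and library total. The submitters' processing notes name STAR 2.5.2a, R 3.3.2, edgeR 3.16.5 and limma 3.30.8. cDNA was amplified with a kit that does not mark strand. Counts were listed for 24984 genes and FPKM for 49671. In the counts table, 4 columns of other samples were not used. The authors' log2 CPM and comparisons (fold changes and p-values) were not used.

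The 3 microglia libraries were described without a test. Python 3.11.15 (numpy 2.4.6, pandas 2.3.3, scipy 1.17.1, matplotlib 3.10.9) gave shares, ranks and correlations, and edgeR 4.0.16 in R 4.3.3 the dispersion, with TMM factors. Thinning used 20 draws (seed 20251). Scripts were tested on simulated data. The planned dispersion filter, which needs reads in every library, gave values that were too low there, so a filter on a mean count of at least 10 was added. No pair of libraries agreed within sampling noise. A count of 0 allows up to 3 reads, or 0.508, 0.545 and 0.618 nuclear CPM in libraries LPC_127, LPC_128 and LPC_129, for counting error only. GC content was taken from the longest GENCODE vM21 transcript, which 99.6% of nuclear genes matched, and coordinates from the same annotation.

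The members and the 45 gene lists were chosen with earlier results of these data known. Named genes were the 5 markers, the 30 nuclear genes with the highest mean FPKM, up to 4 leading members of each list and members with no read, the 10 leading genes concentrated in 1 library, the 10 most even genes with at least 500 reads in each library, and the genes of the sort markers. Predicted genes were named only among the 30, and some genes that the rule names are not reported here.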

Additional observations from a re-analysis of the deposited data

How the results depend on the processing

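No paired analysis was possible because a single group was described, with no comparison of groups. Taken over summed FPKM, the share of mitochondrially encoded genes was 41.2% (22.5% of counts), that of the leading 10 and 100 nuclear genes 20.3% and 39.2% (6.54% and 23.6% of counts), that of all function lists 31.8% (28.1% of nuclear counts) and that of the other cell types 0.571% (0.364%). With mitochondrially encoded genes kept, the leading 10 and 100 genes held 24.8% and 40.0%, and of all counts the function lists held 21.6%. Genes read in all 3 libraries numbered 5459 at 10 reads, 9638 at 1 read and 2934 at 100 reads. The mean rho of the pairs was 0.68, and 0.75 over all genes with a read, 0.54 over genes with 10 reads in every library, 0.53 over genes with 100 reads in 1 library and 0.54 by FPKM. Genes concentrated in 1 library numbered 339 at a mean of 20 CPM, 871 at 5 CPM and 74 at 100 CPM. The common dispersion of 0.75 was 1.84 with no filter and 1.70 with the added filter on the mean count.

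Libraries were also left out in turn. Without library LPC_129, genes read in every remaining library numbered 9916, rho was 0.73, the shared leading 500 genes numbered 281, the median marker rank was 54 and the dispersion 0.419. Over the libraries left out, the ranges were 5608 to 9916 genes, 0.63 to 0.73 for rho, 183 to 281 shared genes, 24 to 54 for the marker rank, 0.419 to 0.888 for the dispersion and 403 to 1898 genes concentrated in 1 of the 2 libraries left, a fraction that is easier to reach with fewer libraries. Those genes numbered 1252 without library LPC_127, 1898 without LPC_128 and 403 without LPC_129. The mitochondrial share ranged from 14.3% without library LPC_128 to 28.3% without library LPC_127. Leaving 1 of 3 libraries out cannot move a mean by its SD, so such means say nothing of stability. By summed FPKM, 21 of the 45 list shares moved by more than the SD between libraries, and of all counts 9 did. Leave-one-out values of rho, shared genes and concentrated genes were chosen after seeing the data.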

Other observations

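Genes concentrated in library LPC_127 had a median transcript GC content of 55.7% over 147 genes, those of library LPC_129 47.9% over 187 genes and those of library LPC_128 43.3% over 5 genes, beside 47.9% over the 5392 nuclear genes with a mean of at least 20 CPM.

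Classes of non-coding RNA had different orders of libraries. Features annotated as rRNA outside the mitochondria held 0.360%, 0.0192% and 0.0751% of all reads in libraries LPC_127, LPC_128 and LPC_129 and those annotated as miRNA 0.635%, 0.0528% and 0.0755%, highest in library LPC_127, whereas snRNA held 0.0145%, 0.0244% and 0.0476% and snoRNA 0.0251%, 0.0204% and 0.0453%, highest in library LPC_129. Rn18s-rs5, annotated as rRNA, had 23645, 1450 and 4261 reads in libraries LPC_127, LPC_128 and LPC_129, Mir6236 had 8757, 204 and 504 reads and Gm23935 29586, 2339 and 2412 reads. All of these were highest in library LPC_127. There Rn18s-rs5 supplied most reads of the non-mitochondrial rRNA features, and Gm23935 and Mir6236 supplied most reads of the miRNA features. The shares of these classes thus rest on few features. In the same libraries mt-Rnr2 had 453793, 2131045 and 607242 reads, and was highest in library LPC_128.

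Among genes of MHC class II, Cd74, the invariant chain, had 2411, 744 and 19 reads, while H2-Ob, a modulator of peptide loading, had 89, 492 and 6550 reads. They ran in opposite directions across the libraries, but H2-Ob had 94.2% of its summed CPM in library LPC_129. Of 12 class II genes with at least 10 reads in any library, 58.3% were lowest in LPC_129, against 64.6% of all genes. The share highest there was 16.7%, against 18.15% of all genes.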
